A study of Mus musculus with 8 samples.

Results

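The ligands of the tumour necrosis factor (TNF) superfamily were followed in mouse spleen CD4 helper T cells after activation. They were 10 genes, Tnf, Lta, Ltb, Tnfsf14, Tnfsf8, Fasl, Tnfsf11, Tnfsf4, Tnfsf9 and Cd40lg, taken by gene symbol from the 18193 genes named on the array. They were read by 13 of 34945 probe sets that carry 1 gene symbol. Where a gene had several probe sets, the brightest over the 8 arrays was used. All 10 passed the filter on dim genes, and 8 of them lay above the array median on every array. Tnfsf14 did so on 6 arrays and Cd40lg on 5.

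There were 4 groups of 2 arrays. The cells came from 8-week-old wild-type (WT) mice or from mice deficient in IFN-γ receptor 1 (KO). Every culture received CD3 and CD28 stimulation lasting 15 h, and either db-cAMP, a membrane-permeable analogue of cyclic AMP, or its vehicle was present for the final 3 h. The sources used here do not give the strain, the sex, the db-cAMP dose or the nature of the receptor mutation. The titles speak of biological replicates but name no separate mice or cultures. The p-values therefore reflect the spread among these arrays alone, which may be technical. Free-text descriptions of the 4 KO arrays say WT, against their titles, source names and genotype entries. Gbp2, a GTPase induced by IFN-γ, with vehicle read 7532 ± 808 in WT and 432 ± 68.2 in KO cells (SD, n = 2). Ifngr1, the targeted gene, read 889 ± 22.4 and 7760 ± 624 in WT cells with vehicle and db-cAMP, and 408 ± 43.5 and 1164 ± 153 in KO cells. It was lower in KO cells under each treatment, yet its KO level with db-cAMP exceeded the WT level with vehicle. Where its probe set lies relative to the mutation is not known here.

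TNF superfamily ligands are mostly membrane-anchored proteins that assemble as trimers and cluster receptors on neighbouring cells. In helper T cells they are induced by the T cell receptor and carry much of the contact-dependent help, killing and inflammation that these cells exert. Cyclic AMP acts through protein kinase A and is a classical brake on T cell receptor signalling.

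Poly-A control signals, which come from transcripts added to the RNA, ran from 1270 to 1853 on the WT arrays and from 3755 to 5294 on the KO arrays, without overlap. The 18S rRNA controls ran from 24553 to 28575 with vehicle and from 31397 to 38701 with db-cAMP. Among marker lists of other cells, the summed B cell signal was 10047 to 11253 in WT cells with vehicle and 5249 to 5847 with db-cAMP. Ighm carried that sum, at 10108 ± 932 and 4920 ± 505 (SD, n = 2). It was the 1 of 5 tested B cell markers that passed for db-cAMP in WT cells. Ms4a1 stood at 0.13, Cd79b at 0.36 and Pax5 at 0.13 on the log2 scale. Blk was dim and variable, at 57.3 ± 54.1 with vehicle and 32.4 ± 33.8 with db-cAMP. For KO against WT with db-cAMP, 1 B cell marker was higher and 2 were lower, Ms4a1 at -0.76 and Cd79b at -1.28. The NK cell sum in WT cells was 521 to 592 with vehicle and 881 to 898 with db-cAMP, most of it Klrd1. The CD8 T cell sum was 499 to 516 in WT and 290 to 335 in KO cells with vehicle. With db-cAMP it was 367 to 433 in WT and 270 to 276 in KO cells. Of 9 T cell identity markers tested, 1 was higher and 4 were lower in KO than in WT cells with vehicle. With db-cAMP 3 were higher and 3 lower. Of all genes tested, 10.8% passed for KO against WT with vehicle and 29.2% with db-cAMP. Macrophage and neutrophil, dendritic, and erythroid and platelet sums were at most 576 on every array, and 0 of their 7 markers bright enough to be tested passed limma's test in any comparison. The part of these controls and markers in the results below was not tested.

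RefSeq promoter sequences (GRCm38.p6) were matched for 7 of the 10 ligands. Those of the 4 ligands that fell most with db-cAMP and of Fasl, whose rise differed between genotypes, are shown as the 250 bases before the table's transcript start, 5′ to 3′. Tnf, Lta and Ltb are neighbours on chromosome 17, and their windows are set side by side for that reason. Capitals mark matches to any of 6 short motifs searched on both strands.

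Tnf (chr17:35202008-35202257, minus strand): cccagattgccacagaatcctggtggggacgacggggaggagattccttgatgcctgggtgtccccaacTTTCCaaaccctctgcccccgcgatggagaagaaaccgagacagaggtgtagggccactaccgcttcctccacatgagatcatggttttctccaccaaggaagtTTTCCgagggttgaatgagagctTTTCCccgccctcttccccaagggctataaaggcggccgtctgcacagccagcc
Lta (chr17:35205352-35205601, minus strand): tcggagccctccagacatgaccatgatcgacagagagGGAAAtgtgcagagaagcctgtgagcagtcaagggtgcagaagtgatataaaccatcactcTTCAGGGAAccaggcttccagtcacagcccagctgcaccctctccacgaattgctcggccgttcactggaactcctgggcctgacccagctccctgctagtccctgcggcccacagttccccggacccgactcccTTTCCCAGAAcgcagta
Ltb (chr17:35194257-35194506, plus strand): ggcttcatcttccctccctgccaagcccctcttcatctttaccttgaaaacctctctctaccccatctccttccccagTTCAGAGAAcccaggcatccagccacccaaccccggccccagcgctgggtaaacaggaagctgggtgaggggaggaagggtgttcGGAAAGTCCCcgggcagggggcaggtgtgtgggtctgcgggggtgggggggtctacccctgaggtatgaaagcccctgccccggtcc
Tnfsf14 (chr17:57194182-57194431, minus strand): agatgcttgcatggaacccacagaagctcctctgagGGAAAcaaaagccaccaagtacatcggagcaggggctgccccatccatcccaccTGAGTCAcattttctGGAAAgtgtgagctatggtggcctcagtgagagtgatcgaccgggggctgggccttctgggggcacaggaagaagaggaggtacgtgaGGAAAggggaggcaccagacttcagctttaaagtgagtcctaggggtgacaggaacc
Fasl (chr1:161788496-161788745, minus strand): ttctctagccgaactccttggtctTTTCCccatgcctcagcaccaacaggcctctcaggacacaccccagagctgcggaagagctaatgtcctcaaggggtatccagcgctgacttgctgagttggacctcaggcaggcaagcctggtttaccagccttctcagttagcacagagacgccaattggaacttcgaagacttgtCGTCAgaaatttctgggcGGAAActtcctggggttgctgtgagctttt

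The motifs were the cyclic AMP response element (CRE) TGACGTCA, its shorter form TGACG, which lies within it, the AP-1 motif TGANTCA, the kappa B core GGGANTTNC, the NFAT core GGAAA, and TTCNNNGAA, the form of a STAT-binding GAS element. The NFAT core was found in all 7 windows of the ligands, against 55.6% of the 32851 promoter windows of that length. The full CRE was in 0 of the 7 windows (1.55% of all windows). The shorter form was present in the Fasl window, from 48 to 44 bases before the start (17.8% of all windows). Ltb held the only kappa B core among the ligands, from 86 to 78 bases before its start and overlapping an NFAT core (3.54% of all windows). Tnfsf14 held the only AP-1 motif, from 160 to 154 bases (6.75% of all windows). Lta with 2 GAS forms and Ltb with 1 stood among 7.02% of all windows. The NFAT core at 17 to 13 bases before the Lta start overlaps a GAS form. A match is a run of letters and not a measured binding site.

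The first question was what db-cAMP did to each ligand in cells that can sense IFN-γ. In WT cells 5 of the 10 ligands fell, 2 rose and 3 did not pass the test. Tnf, Lta, Ltb, Tnfsf14 and Tnfsf8 fell, and Tnfsf4 and Fasl rose. The call was a limma adjusted p under 0.05, which 35% of the 12091 genes tested reached in this comparison. The median log2 change was -0.41 over the 10 ligands and 0.01 over all genes tested. In bulk RNA, fewer cells that express a gene and less of its RNA in each cell cannot be told apart.

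**Figure D1:**
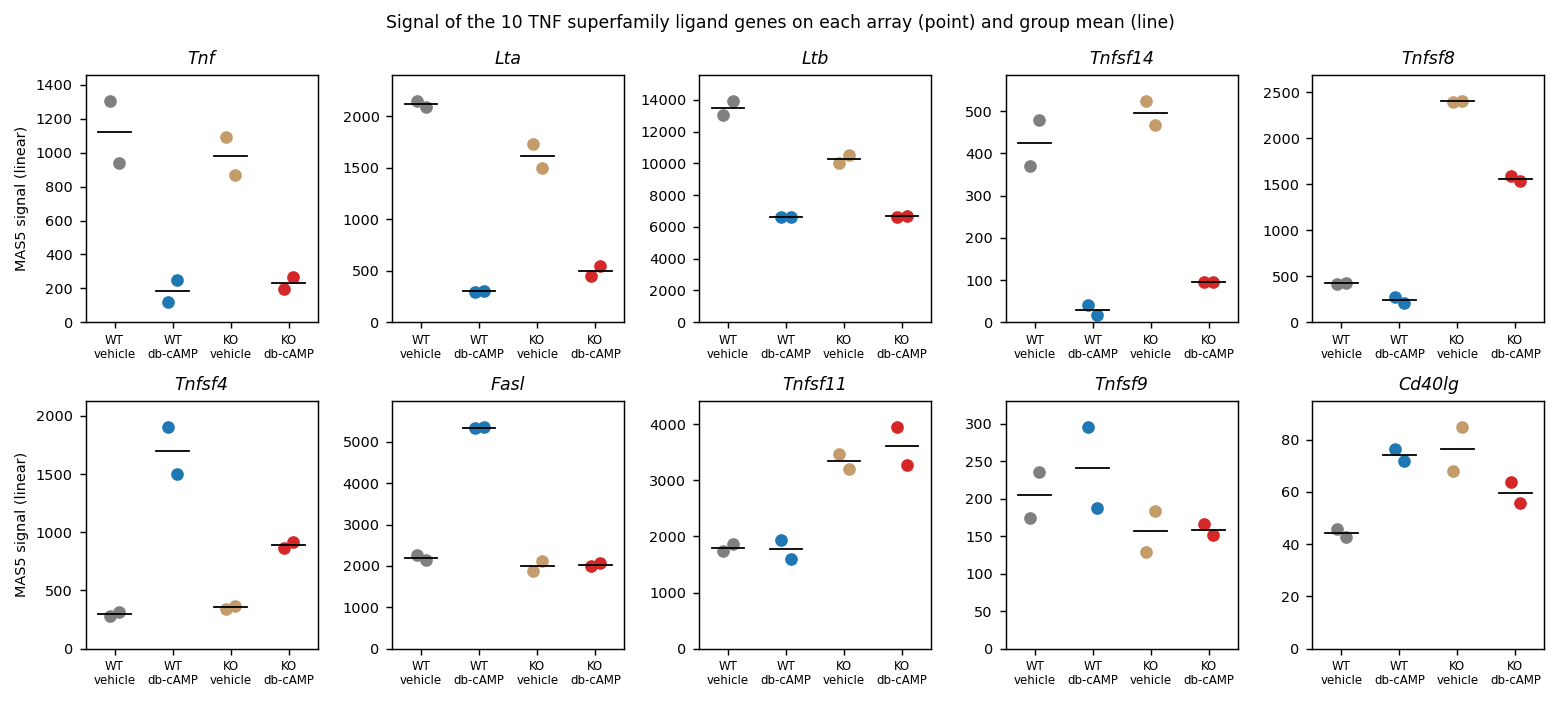
Linear MAS5 signal (vertical axes, from 0) of each ligand on each of the 8 arrays (points) with the mean of the 2 arrays of a group (lines). Tnf, Lta, Ltb and Tnfsf14 are lower with db-cAMP in both genotypes, Tnfsf4 is higher in both, Fasl is higher in WT cells only, and Tnfsf8 and Tnfsf11 are higher in KO cells under both treatments.

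Tnf encodes TNF itself, the inflammatory cytokine that signals through TNF receptors 1 and 2. Its signal was 1305 and 941 on the WT vehicle arrays and 118 and 246 with db-cAMP, and 1092 and 867 against 196 and 268 in KO cells. All 4 db-cAMP arrays lay below all 4 vehicle arrays. The log2 change was -2.66 ± 0.28 (standard error of the fit) in WT cells, a 6.3-fold fall (adjusted p = 6.03e-06), and -2.06 ± 0.28 in KO cells, a 4.17-fold fall (adjusted p = 0.00041). Without the intensity trend the KO call was lost (adjusted p = 0.0843). The difference between these changes was 0.59 ± 0.40 and was not called (adjusted p = 0.412). It rested on the WT db-cAMP arrays, being 1.11 without replicate 2 (adjusted p = 0.0453) and 0.08 without replicate 1 (adjusted p = 0.903).

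Lta encodes lymphotoxin alpha, a secreted relative of TNF that also pairs with lymphotoxin beta on the cell surface. Signals were 2146 and 2092 with vehicle and 294 and 307 with db-cAMP in WT cells, and 1725 and 1499 against 446 and 543 in KO cells. In each genotype the treatments were apart, and the WT arrays with db-cAMP were the lowest of all 8. Lta fell by 2.80 ± 0.13 on the log2 scale in WT cells (adjusted p = 1.97e-09) and by 1.70 ± 0.13 in KO cells (adjusted p = 1.96e-06). The fall was smaller in KO cells by 1.10 ± 0.18 (adjusted p = 0.00132 for the interaction).

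Ltb encodes lymphotoxin beta, the membrane-bound partner that directs the heterotrimer to the lymphotoxin beta receptor. It stood at 13065 and 13929 with vehicle and 6655 and 6653 with db-cAMP in WT cells. In KO cells it stood at 10015 and 10512 against 6632 and 6720. The vehicle arrays differed by genotype, whereas all 4 arrays with db-cAMP lay within 6632 and 6720. Ltb fell 2.03-fold in WT (log2 -1.02 ± 0.07, adjusted p = 7.26e-08) and 1.54-fold in KO cells (log2 -0.62 ± 0.07, adjusted p = 6.72e-05). The interaction was 0.40 ± 0.10 (adjusted p = 0.0151), and leaving out 1 array ended that call for WT vehicle replicate 2 (adjusted p = 0.0598), KO vehicle replicate 1 (0.053) or KO db-cAMP replicate 1 (0.0559) or 2 (0.0666).

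These 3 genes form one cluster in the order Ltb, Tnf, Lta. The nearest genes on either side did not pass the test with db-cAMP in either genotype. Lst1, next to Ltb, stood at 0.60 in WT (adjusted p = 0.541) and 0.41 in KO cells (adjusted p = 0.82). Nfkbil1, next to Lta, stood at -0.38 (adjusted p = 0.11) and 0.01 (adjusted p = 0.979).

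Tnfsf14 encodes LIGHT, a costimulatory ligand of the herpesvirus entry mediator (Tnfrsf14) and of the lymphotoxin beta receptor. It gave 369.6 and 478 with vehicle and 39.8 and 17.1 with db-cAMP in WT cells. In KO cells it gave 524 and 468 against 95.2 and 94.1. The WT arrays with db-cAMP were the only ones below their array median, so their level is poorly set and the offset in the log2 scale understates the fall. It fell by 3.73 ± 0.33 in WT (13.3-fold, adjusted p = 1.16e-06) and by 2.32 ± 0.33 in KO cells (5-fold, adjusted p = 0.000554). The interaction, 1.41 ± 0.47, was not called (adjusted p = 0.0702), but was after quantile normalization (1.57, adjusted p = 0.0441). It was 1.91 without WT db-cAMP replicate 1 (adjusted p = 0.00601) and 0.91 without replicate 2 (adjusted p = 0.133). A second probe set of the gene lay between 2.18 and 121, and replicates of the vehicle groups differed widely there (69.5 and 4.36 in WT, 121 and 5.58 in KO cells). It passed in no comparison, and the mean of both probe sets lost the call in KO cells (adjusted p = 0.294).

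Tnfsf8 encodes CD30 ligand, whose receptor CD30 appears on activated lymphocytes. Its signals were 415 and 428 with vehicle and 277 and 209.6 with db-cAMP in WT cells. The corresponding KO arrays read 2397 and 2402, and 1585 and 1534. Genotype separated the arrays more than treatment did, since the lowest KO array exceeded the highest WT array several times over. With db-cAMP Tnfsf8 fell 1.73-fold in WT (log2 -0.79 ± 0.13, adjusted p = 0.000342) and 1.54-fold in KO cells (log2 -0.62 ± 0.13, adjusted p = 0.0104). In KO cells the call was lost without KO vehicle replicate 1 or 2 (adjusted p = 0.067 and 0.095) or KO db-cAMP replicate 1 or 2 (0.0739 and 0.0999). It was also lost without the intensity trend (0.119).

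Tnfsf4 encodes OX40 ligand, which engages OX40 on T cells and sustains their survival. It read 283 and 312 with vehicle and 1901 and 1501 with db-cAMP in WT cells, against 344 and 369, and 862 and 915, in KO cells. The 4 arrays with db-cAMP were the 4 highest, with WT above KO. The rise was 5.6-fold in WT (log2 2.49 ± 0.14, adjusted p = 1.56e-08) and 2.47-fold in KO cells (log2 1.30 ± 0.14, adjusted p = 6.14e-05). It was smaller in KO cells by a log2 difference of -1.18 ± 0.20 (adjusted p = 0.00168). Antigen-presenting cells also express Tnfsf4. The 3 dendritic cell markers tested were dim, with group means from 15.6 to 135, and 0 passed for db-cAMP in either genotype. Such dim markers cannot decide on the part of these cells, which was not tested.

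Fasl encodes Fas ligand, which triggers apoptosis through Fas and ends T cell responses. It was 2258 and 2148 with vehicle and 5346 and 5354 with db-cAMP in WT cells. In KO cells it was 1876 and 2124 with vehicle and 1996 and 2069 with db-cAMP. The WT arrays with db-cAMP stood alone, and the KO treatments overlapped. Fasl rose 2.43-fold in WT cells (log2 1.28 ± 0.08, adjusted p = 7.08e-08) and stood at 0.03 ± 0.08 in KO cells (95% interval -0.16 to 0.21, adjusted p = 0.919). The interaction was -1.25 ± 0.12 (adjusted p = 2.98e-05). A second Fasl probe set read 1058 and 889.5 against 2431 and 2064 in WT cells and 712 and 783 against 765 and 861 in KO cells, with an interaction of -1.08 ± 0.18 (adjusted p = 0.0026 over every probe set).

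NK cells carry Fas ligand too, and 1 of 2 tested NK cell markers, Klrd1, rose with db-cAMP in both genotypes. In KO cells the summed signal of the list was 467 to 513 with vehicle and 990 to 1027 with db-cAMP. The part of NK cells in the Fasl signal was not tested. Klrd1 rose by 0.83 in WT and 1.18 in KO cells (adjusted p = 0.000719 and 0.000258). Klre1 stood at 0.21 and 0.07 (adjusted p = 0.805 and 0.97), and Ncr1 and Klra8 lay below the array median on all arrays. Tnfsf4 and Fasl lie near each other on chromosome 1 with Tnfsf18 between them. Suco, the next gene beyond Fasl, stood at 1.23 in WT (adjusted p = 1.25e-06) and 0.27 in KO cells (adjusted p = 0.171).

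In KO cells 5 ligands fell and 1 rose with db-cAMP, and 4 did not pass, where 8.38% of all genes tested were called. The 5 that fell were those that fell in WT cells, and Tnfsf4 was the one that rose. The median log2 change was -0.47 over the ligands and -0.0036 over all genes tested. The WT and KO comparisons share no arrays.

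**Figure D2:**
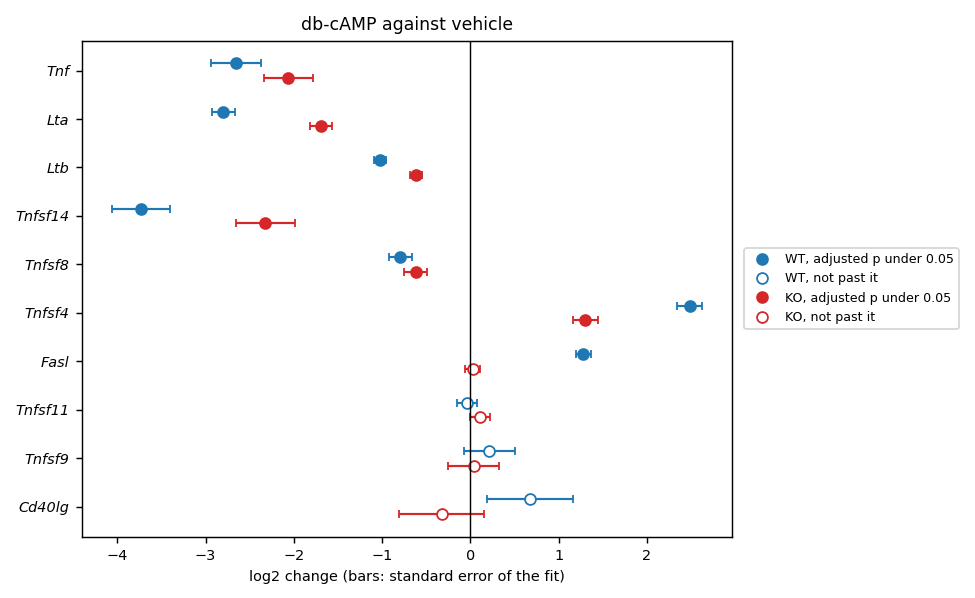
Log2 change with db-cAMP (horizontal axis) of each ligand in WT (blue) and KO cells (red), with standard errors of the limma fit over all 8 arrays. Filled points passed an adjusted p of 0.05. Tnfsf14 at -3.73 and Tnfsf4 at 2.49 in WT cells are the extremes, and Fasl is filled in WT cells only.

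RANK ligand, 4-1BB ligand and CD40 ligand did not pass the test for db-cAMP in either genotype. Tnfsf11, which encodes RANK ligand, the osteoclast-inducing ligand, read 1743 and 1862 against 1946 and 1591 in WT cells and 3473 and 3209 against 3947 and 3279.7 in KO cells. Treatments overlapped in each genotype. The log2 change was -0.03 (95% interval -0.28 to 0.21) in WT and 0.11 (-0.13 to 0.35) in KO cells, which leaves room for changes of up to about those bounds.

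Tnfsf9 encodes the ligand of the costimulatory receptor 4-1BB (Tnfrsf9). It read 174 and 236 against 295 and 188 in WT cells and 129 and 184 against 166 and 152 in KO cells. The treatments overlapped in each genotype. The log2 change in WT cells was 0.21, with a wide interval of -0.41 to 0.84 (adjusted p = 0.626). With db-cAMP the KO arrays lay below the WT arrays, a log2 difference of -0.55 ± 0.29 that was not called (adjusted p = 0.182).

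Cd40lg encodes CD40 ligand, the signal by which helper T cells license B cells and dendritic cells. Its only probe set was near the array medians of 56.2 to 70.5. It read 45.8 and 42.9 with vehicle and 76.5 and 71.8 with db-cAMP in WT cells, and 68.0 and 84.7 against 63.7 and 55.6 in KO cells. The WT vehicle arrays were the lowest, and the treatments did not overlap in either genotype, in opposite directions. The log2 changes were 0.68 ± 0.48 in WT and -0.32 ± 0.48 in KO cells (adjusted p = 0.322 and 0.797), and the 95% interval of their difference was -2.48 to 0.48 (adjusted p = 0.424). Without the intensity trend the WT change was called (adjusted p = 0.0179).

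The next question was which ligands differed between KO and WT cells under each treatment. With vehicle, 2 ligands were higher and 1 lower in KO than in WT cells and 7 did not pass, where 10.8% of all genes tested were called. The median log2 difference was 0.05 over the ligands and -0.0052 over all genes tested. With db-cAMP, 4 were higher, 2 lower and 4 did not pass, where 29.2% of all genes were called (medians 0.21 and -0.0046). These comparisons share arrays with those of db-cAMP against vehicle. Poly-A controls separated the genotypes on every array, as given above.

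Tnfsf8 and Tnfsf11 were higher in KO cells under both treatments. Tnfsf8 was 5.63-fold higher with vehicle (log2 2.49 ± 0.13, adjusted p = 7.18e-08) and 6.35-fold higher with db-cAMP (log2 2.67 ± 0.13, adjusted p = 1.44e-08). Tnfsf11 was 1.85-fold higher with vehicle (log2 0.89 ± 0.11, adjusted p = 0.000214) and 2.04-fold higher with db-cAMP (log2 1.03 ± 0.11, adjusted p = 1.42e-05). Its second probe set read 467 and 360.2 in WT against 727 and 847 in KO cells with vehicle, and 432 and 368 against 774 and 753 with db-cAMP. It was called in both comparisons (log2 0.93 in each, adjusted p = 0.00204 and 0.000773 over every probe set).

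Ltb was lower in KO cells with vehicle, at 13497 ± 611 in WT and 10263.5 ± 351 in KO cells (SD, n = 2; log2 -0.39 ± 0.07, adjusted p = 0.0021), and -0.23 after quantile normalization (adjusted p = 0.0265). With db-cAMP its genotypes overlapped at a log2 difference of 0.0046, with a 95% interval of -0.14 to 0.15. Lta stood at -0.40 ± 0.13 with vehicle and was not called (adjusted p = 0.0622), although its arrays did not overlap. With an equal 75th percentile on each array Lta was called too (-0.49, adjusted p = 0.0164), which made the ligands 2 higher and 2 lower. Without the intensity trend Ltb and Tnfsf11 lost their calls with vehicle (adjusted p = 0.0891 and 0.0565).

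With db-cAMP, Lta and Tnfsf14 were higher and Fasl and Tnfsf4 lower in KO cells. Lta was 1.63-fold higher (log2 0.70 ± 0.13, adjusted p = 0.000795). Tnfsf14 was 3.13-fold higher (log2 1.65 ± 0.33, adjusted p = 0.00188), a call lost when only the 4 arrays of the comparison were fitted (adjusted p = 0.0779) and with the mean of its probe sets (0.134). With an offset of 50 it was 0.90 (adjusted p = 0.0056). Fasl was 2.63-fold lower (log2 -1.39 ± 0.08, adjusted p = 8.49e-08) and Tnfsf4 1.9-fold lower (log2 -0.92 ± 0.14, adjusted p = 0.000235). Tnf stood at 0.41 ± 0.28 (adjusted p = 0.321), at 0.92 without WT db-cAMP replicate 2 (adjusted p = 0.0153) and at -0.10 without replicate 1 (adjusted p = 0.793), so that its direction was not settled.

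**Figure D3:**
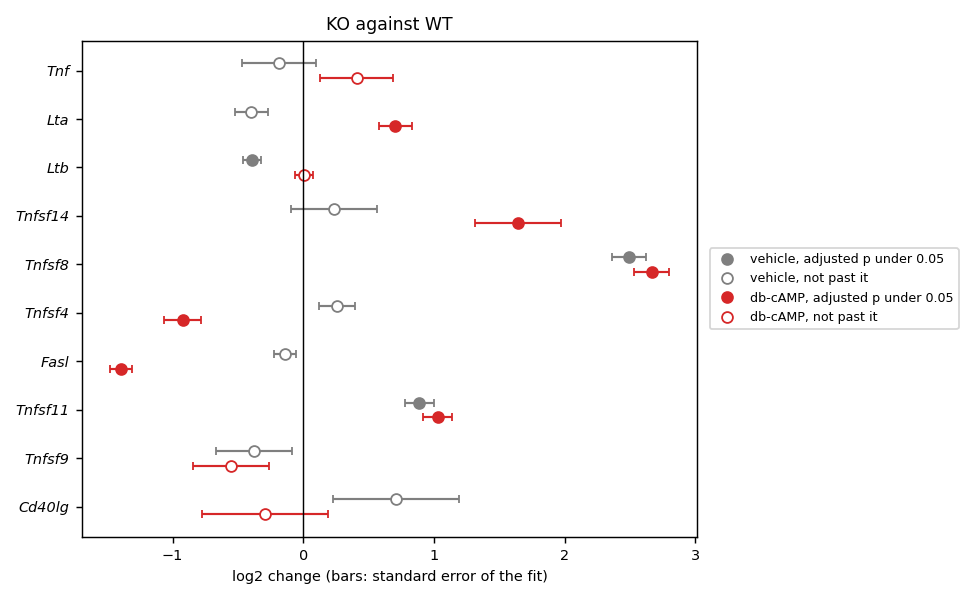
Log2 difference KO minus WT (horizontal axis) of each ligand under vehicle (grey) and db-cAMP (red), with standard errors of the limma fit over all 8 arrays. Filled points passed an adjusted p of 0.05. Tnfsf8 at 2.49 and 2.67 and Tnfsf11 at 0.89 and 1.03 are to the right under both treatments, and Fasl at -1.39 is farthest to the left with db-cAMP.

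The interaction, which is the db-cAMP change in KO cells minus that in WT cells, was called for 4 of the 10 ligands, against 11.8% of all genes tested. They were Lta, Ltb, Tnfsf4 and Fasl, and in each the change was smaller in KO cells. Tnfsf8 stood at 0.17 (95% interval -0.23 to 0.58) and Tnfsf11 at 0.14 (-0.20 to 0.48), and these intervals bound how far their db-cAMP changes could differ between genotypes. Without the intensity trend Fasl alone was called, and Lta and Tnfsf4 narrowly lost their calls (adjusted p = 0.0552 for each).

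The receptors of these ligands were read from the same fit. Of 11 on the array 8 were tested, and with db-cAMP 3 rose and 0 fell in WT cells and 2 rose and 0 fell in KO cells. In WT cells 35% and in KO cells 8.38% of all genes tested were called, so the WT count is near the background. Their median log2 change was 0.51 in WT and 0.13 in KO cells. Tnfrsf1b, which encodes TNF receptor 2, rose in both (log2 0.44 ± 0.09 and 0.47 ± 0.09, adjusted p = 0.00134 and 0.0041), while its ligand genes Tnf and Lta fell. Tnfrsf1a, which encodes TNF receptor 1, rose from 423 ± 90.2 to 986 ± 109.7 in WT cells (SD, n = 2; adjusted p = 7.9e-05) and stood at 649 ± 129.5 and 673 ± 38.7 in KO cells (adjusted p = 0.898). That difference was called (interaction -1.16 ± 0.24, adjusted p = 0.00731).

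Tnfrsf9, the receptor of Tnfsf9, rose from 4099 ± 325 to 7549 ± 257 in WT and from 4091 ± 58.7 to 5751 ± 319.9 in KO cells (adjusted p = 1.25e-06 and 0.00145). The rise was smaller in KO cells (interaction -0.39 ± 0.11, limma adjusted p = 0.036). Tnfrsf4, which encodes OX40, stood at 0.20 ± 0.07 in WT (adjusted p = 0.0513) and -0.03 ± 0.07 in KO cells (adjusted p = 0.877), beside the rise of its ligand. Fas stood at 0.10 ± 0.26 and 0.20 ± 0.26, with adjusted p of 0.796 and 0.754. Tnfrsf8, Tnfrsf11a and Tnfrsf11b, receptors of CD30 ligand and RANK ligand, did not pass the filter, with group means of at most 47.5. Ltbr and Tnfrsf14 were dim, with group means from 15.6 to 119.6, and neither passed for db-cAMP against vehicle. Tnfrsf14 was called lower in KO than in WT cells with db-cAMP (log2 -2.86 ± 0.73, limma adjusted p = 0.00912). Its signals there were 15.6 ± 18.0 in KO and 119.6 ± 41.4 in WT cells (SD, n = 2). Cd40, more typical of B cells and other antigen-presenting cells, stood at -0.86 in KO against WT cells with vehicle (adjusted p = 0.0132). With db-cAMP it stood at -0.77 (limma adjusted p = 0.00998). Of 5 tested B cell markers, 0 passed for KO against WT with vehicle, and with db-cAMP 1 was higher and 2 were lower. The part of B cells in the Cd40 signal was not tested.

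Among 13 adaptors and proximal signalling genes tested, 7 rose and 1 fell in WT cells and 3 rose and 1 fell in KO cells, beside 35% and 8.38% of all genes called. Tnfaip3, which encodes the ubiquitin-editing brake A20, rose by 2.44 ± 0.11 in WT and 0.87 ± 0.11 in KO cells (adjusted p = 1.6e-09 and 0.000176). Traf1, an adaptor induced by NF-κB, rose by 1.13 and 0.44, and Traf4 by 1.35 and 0.44. Cflar, whose product cFLIP holds back caspase-8 at death receptors, fell by 0.59 and 0.77 (adjusted p = 0.000263 and 0.000209). Other TNF superfamily ligands tested, Tnfsf10, Tnfsf13b and Cd70, gave 0 calls among 3 in limma for every comparison, with 0 at an unadjusted p under 0.05 for db-cAMP in either genotype.

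**Figure D4:**
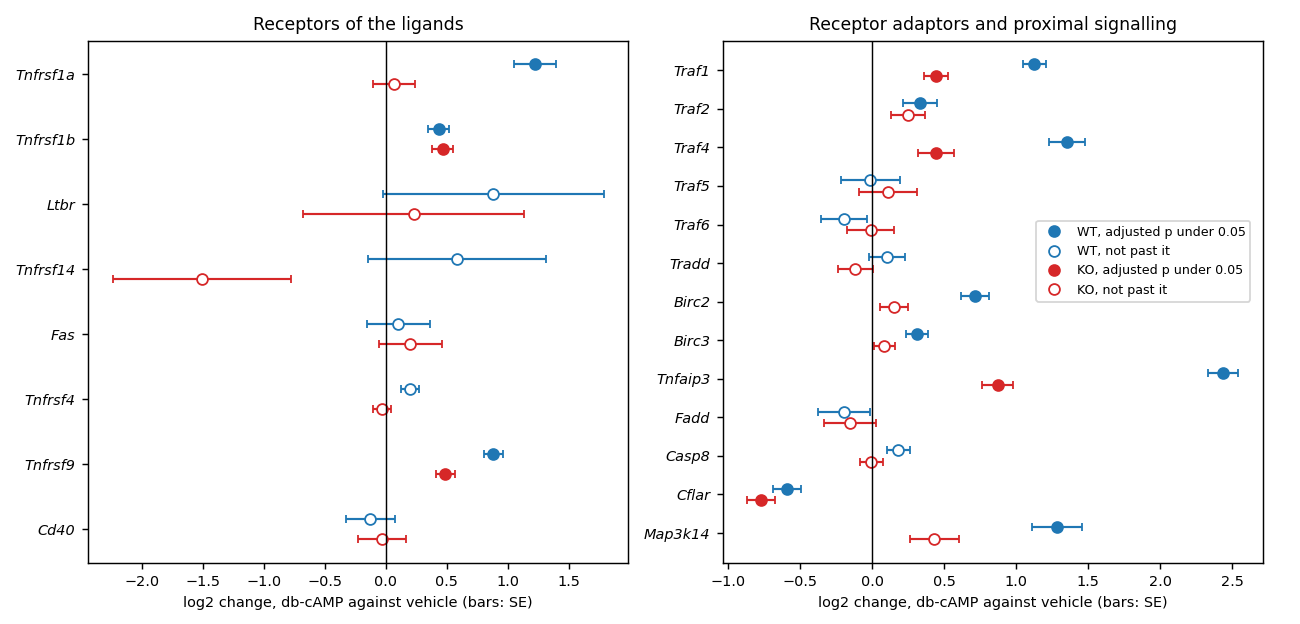
Log2 change with db-cAMP (horizontal axes) in WT (blue) and KO cells (red) for the receptors of the ligands (left) and for receptor adaptors and proximal signalling genes (right), with standard errors of the limma fit. Filled points passed an adjusted p of 0.05. Tnfaip3 at 2.44 in WT cells lies farthest to the right, and Cflar is the filled gene on the left in both genotypes.

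Genes whose log2 profile over the 8 arrays was most like that of a ligand were also listed, as a description in which the 4 groups set most of the likeness. For Tnf it was Zbtb32 (Pearson r = 0.992), for Lta Mapk6 (0.994), and for Ltb Eif6 (0.994). For Tnfsf14 the closest were Dancr (0.995) and Nfkbid, an atypical inhibitor of NF-κB (0.994). Tnfsf4 was closest to Ctla2b (0.995), Tnfrsf18, which encodes the TNF receptor family member GITR (0.994), and Cxcr4, a chemokine receptor (0.994). Fasl was closest to Grb2 (0.995) and Tnfsf8 to Nrn1 (0.999).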

How the data were processed

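The 8 arrays were single-colour Affymetrix mouse arrays with 45101 probe sets. The deposited values are linear signal intensity made with MAS5, per the submitters' processing notes, and the trimmed mean of every array is 500.0. The sources used here give neither its version nor its settings. Of the probe sets, 34945 carried 1 gene symbol in the platform annotation, 932 several and 9160 none here. 64 control probe sets were left out. Deposited intensity was turned into log2(value + 5.48), the offset being the 10th percentile, so folds of dim genes are understated. The brightest probe set stood for a gene, and 12091 genes above the array median on at least 2 arrays were tested. They were fitted in limma 3.58.1 (R 4.3.3) on all 8 arrays, each group having 1 term, with an intensity trend and 4 residual degrees of freedom. Adjusted p-values are Benjamini-Hochberg over the 12091 genes, called under 0.05, in 5 comparisons. Intervals are 95%.

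Named genes were all 10 ligands, the genes of the receptor, adaptor and other lists that the text describes, and the genes closest in profile to a ligand by Pearson r. The members and lists were chosen with earlier results of these data known. On simulated data for db-cAMP in WT cells over 12091 genes, 60.6% of 2-fold and 76.4% of 4-fold changes were recovered, and 4.75% of calls were false. The simulation changed a far smaller share of genes than the 35% called in the data. Its noise was independent and drawn from the fit itself, so these rates need not hold for the real arrays. Promoters are RefSeq windows, trimmed to 250 bases before the start. The number of arrays limits the precision.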

Additional observations from a re-analysis of the deposited data

Results flagged for a closer look

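The effect of db-cAMP differed between the genotypes, by a test of the difference itself, for 4 ligands. The log2 difference, KO effect minus WT effect, was 1.10 for Lta, 0.40 for Ltb, -1.25 for Fasl and -1.18 for Tnfsf4. Lta and Ltb fell less in KO cells, Tnfsf4 rose less, and Fasl had a change in WT cells that did not pass the test in KO cells.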

How the results depend on the processing

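Of the 10 ligands, the number called ranged over the single-array omissions from 7 to 7 for db-cAMP in WT cells, 5 to 6 in KO cells, 3 to 3 for KO against WT with vehicle, 6 to 7 with db-cAMP, and 3 to 5 for the interaction. Without the intensity trend it was 4 for db-cAMP in KO cells, where Tnf and Tnfsf8 lost their calls, 1 for KO against WT with vehicle and 1 for the interaction. No call of a ligand reversed. With the replicate number as a block the counts were 7, 6, 3, 6 and 4, and over all genes 4184, 935, 1250, 3485 and 1373. Same-numbered arrays did not deviate together (r from -0.02 to 0.02). This cannot tell whether they share a mouse, culture or day, which is not known here. Over all genes, leaving out an array gave 446 to 1089 calls for db-cAMP in KO cells, 617 to 1391 for KO against WT with vehicle and 891 to 1336 for the interaction. Without the trend these were 188, 251 and 261, and with the mean of probe sets 497, 794 and 709. Over every probe set, 6385 were called for db-cAMP in WT cells, 2401 for KO against WT with vehicle and 5790 with db-cAMP, among 21956 tested. An equal 75th percentile moved the median of all genes by -0.12 for KO against WT with db-cAMP. It split the calls into 402 higher and 1177 lower with vehicle (612 and 699 otherwise), 1371 and 2243 with db-cAMP (1926 and 1603), and 447 and 585 for db-cAMP in KO cells (568 and 445). The cause of these shifts was not tested. Signals near the array median, as for Cd40lg and for Tnfsf14 in WT cells with db-cAMP, limit what can be told.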

Other observations

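Transcription factors known to act on ligand genes moved in both directions with db-cAMP. Of 20 tested, 9 rose and 5 fell in WT cells, and 5 rose and 4 fell in KO cells, where 35% and 8.38% of all genes tested were called. The 20 include Nfkbia, which encodes an inhibitor of NF-κB and not a transcription factor, and which rose by 0.33 in WT cells. The activation-induced factors Egr2 and Egr3 fell by 2.91 ± 0.14 and 2.96 ± 0.10 on the log2 scale in WT cells (adjusted p = 3.35e-09 and 3.06e-10), and by 1.22 ± 0.14 and 0.97 ± 0.10 in KO cells (adjusted p = 8.82e-05 and 6.3e-05). Nfatc1, a calcium-regulated factor, fell by 1.45 in WT and 0.54 in KO cells (adjusted p = 4.43e-08 and 0.00207). Nfatc2 fell by 1.46 in WT cells (limma adjusted p = 0.000119) and stood at -0.48 in KO cells (0.226). Nfatc3 instead rose, by 0.71 in WT and 0.36 in KO cells (limma adjusted p = 1.37e-05 and 0.0173). Fos rose by 0.99 in WT and 0.79 in KO cells, and Jun by 0.94 and 0.64. Crem, a cyclic AMP-responsive gene, rose by 3.98 in WT and 2.52 in KO cells (adjusted p = 2.6e-10 and 1.54e-07).

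Of 12 RNA-binding regulators tested, 3 rose and 0 fell in WT cells and 2 rose and 0 fell in KO cells, which in WT cells is below the 35% of all genes called (8.38% in KO cells). Zfp36, whose product tristetraprolin destabilises Tnf mRNA, rose by 0.80 ± 0.10 in WT and 0.70 ± 0.10 in KO cells (adjusted p = 2.61e-05 and 0.000554). Arid5a rose more, by 1.77 ± 0.13 in WT and 0.87 ± 0.13 in KO cells (limma adjusted p = 2.52e-07 and 0.00103). Ptbp1 was called in WT cells only, at 0.23 ± 0.07 (limma adjusted p = 0.0247). The part of these regulators in the ligand changes was not tested. Of 6 tested genes linked to shedding or cleavage of these ligands, not all of them proteases, 2 fell in WT and 1 in KO cells. In WT cells this is near the 35% of all genes called (8.38% in KO cells). Adam10, which sheds Fas ligand among others, fell by 0.70 ± 0.07 and 0.28 ± 0.07.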
